A study of Mus musculus with 8 samples.

Results

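Mitotic MB49 malignant cells were the malignant cells of these mouse tumors that held RNA of several genes used in cell division. A cell counted as one when it held UMIs (unique molecular identifiers, counts of captured RNA molecules) of the keratins Krt8 and Krt18, held a UMI of at least 1 of Krt7, Krt19, Tm4sf1, Wfdc2 and Hmga2, and had none of Ptprc or Dcn. It also needed a deposited value of at least 1 for at least 3 of the 6 genes Mki67, Top2a, Birc5, Ube2c, Cenpf and Ccnb1. Ptprc (CD45) marks leukocytes and Dcn (decorin) marks fibroblasts. The rule found 1891 of 29496 cells (6.41%), of which 17 cells lay in tumors of Atg7-deleted hosts and 1874 cells lay in tumors of Atg7 wild-type hosts. Gated malignant cells that had under 3 of the 6 genes are called non-mitotic malignant cells below. Both names refer to the rule and not to a measured stage of the cell cycle. The cells were chosen by their measured values of these 15 genes, so every gene set against non-mitotic cells is given as a description, with no test.

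The series profiled single cells of subcutaneous MB49 tumors with a 10x Genomics 5' kit, and its title concerns host autophagy and the T cell response to tumors of high mutational burden. MB49 is a mouse urothelial cancer line. The deleted hosts were C57BL/6 UbcreERT2/+;Atg7f/f mice, labelled Atg7∆/∆ (libraries 3, 4, 7 and 8), and the wild-type hosts were C57BL/6 UbcreERT2/+;Atg7+/+ mice (libraries 1, 2, 5 and 6). All hosts carried the tamoxifen-inducible Cre under the ubiquitin C promoter and received tamoxifen on 4 days, so both genotypes share the Cre and the drug. After 1 week each mouse received MB49 cells at 2 sites, and the tumors were taken 3 weeks later. Atg7 encodes the E1-like enzyme needed to lipidate LC3 when autophagosomes form, and it was deleted in the host and not in the injected line. The sources used here do not give the age of the hosts. No label links a tumor to its mouse, so tumors of the same animal may be among the libraries, and p-values over libraries may then be too small.

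In a dividing cell, cyclins A and B activate CDK1, which drives chromosome condensation and entry into mitosis. Aurora and Polo-like kinases build the spindle, and the anaphase-promoting complex destroys cyclin B once the kinetochores are attached. The genes of this machinery are transcribed late in the cycle under the MuvB complex with B-MYB and FOXM1. Such RNA is a common readout of dividing cells in tumors.

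Depth set how much each library could show. Mitotic cells held a median of 2914 UMIs in deleted library 4, 24546 in deleted library 7 and 19843 in the single cell of deleted library 8. In wild-type libraries 1, 2, 5 and 6 their medians were 15775, 18576, 13320.5 and 20315 UMIs. The 7 mitotic cells of deleted library 4 were thus the shallowest. Over all libraries, 351 cells carried a barcode found in more than 1 library, 24 of them mitotic malignant cells, and no mitotic cell shared its barcode with a mitotic cell of another library. Libraries 1 to 4 and 5 to 8 used different barcode sets, with 3 barcodes common to both.

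Atg7 itself (ENSMUSG00000030314) was scarce in mitotic malignant cells, at 0, 0.0417 and 0 in deleted libraries 4, 7 and 8, and at 0.212, 0.186, 0.142 and 0.158 in wild-type libraries 1, 2, 5 and 6. It was too low for the host test described at the end. The deleted values rest on 17 cells, and the malignant cells are those of the injected line, whose Atg7 the host deletion does not touch, so these levels are no check of the labels.

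Mitotic malignant cells made up 0%, 0.285%, 0.934% and 0.020% of all cells in deleted libraries 3, 4, 7 and 8. They made up 3.66%, 9.04%, 13.5% and 12.2% of all cells in wild-type libraries 1, 2, 5 and 6. Every deleted library lay below every wild-type library. Neither this share nor the gated share of all cells below was read at equal depth. Over all cells the median was 3860, 3623.5, 2333.5 and 1733 UMIs in deleted libraries 3, 4, 7 and 8. It was 6621, 6281, 6957.5 and 9213 UMIs in wild-type libraries 1, 2, 5 and 6. The part of depth in these shares was not tested. The 0 of 3948 cells in deleted library 3 allows a share of up to 0.0760%, and the largest deleted share, 9 of 964 cells in library 7, had a Wilson 95% interval of 0.492% to 1.76%. The means were 0.310 ± 0.436% in deleted hosts and 9.60 ± 4.38% in wild-type hosts (SD, n = 4 each), with an exact two-sided permutation p of 0.0286 over libraries, the smallest that 4 against 4 libraries can give. Without deleted library 7 the deleted mean was 0.102%. With at least 4 of the 6 genes required, the means were 0.124% in deleted hosts and 5.92% in wild-type hosts. Permuted within the 2 barcode sets, p was 0.0556, which is the smallest possible there. Intervals and limits for a count of 0 cover counting error only.

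Malignant cells of any kind differed between the genotypes in the same direction. Gated malignant cells averaged 3.16 ± 3.96% of all cells in deleted hosts and 51.4 ± 9.27% in wild-type hosts (SD, n = 4 each; exact permutation p = 0.0286). Among the gated malignant cells themselves, 11.7%, 10.5% and 1.69% were mitotic in deleted libraries 4, 7 and 8, against 7.66%, 22.2%, 21.7% and 22.2% in wild-type libraries 1, 2, 5 and 6. Deleted library 3 held 3 gated cells, none of them mitotic, and was left out. These shares rested on 60, 86 and 59 gated cells in the deleted libraries and on 1096, 1282, 3772 and 3091 gated cells in the wild-type libraries.

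A deeper cell passes the rule more easily, so the share was also read after thinning each gated cell to 2000 UMIs. It was then 10.6%, 4.76% and 1.82% in deleted libraries 4, 7 and 8, and 4.89%, 13.6%, 12.8% and 13.5% in wild-type libraries 1, 2, 5 and 6. The genotypes overlapped, because wild-type library 1 lay below deleted library 4. The means were 5.74 ± 4.49% in deleted hosts (SD, n = 3) and 11.2 ± 4.22% in wild-type hosts (SD, n = 4), and the difference of −5.46 percentage points had an exact permutation p of 0.114, where 0.0571 is the smallest possible. Thinning left out 20 of 208 gated cells in deleted hosts and 165 of 9241 in wild-type hosts for having under 2000 UMIs. A difference in the mitotic share of malignant cells was not detectable with 5, 4 and 1 mitotic cells left in the thinned deleted libraries. Neutrophils, which do not divide, met the 6-gene criterion in 0 of 95, 0 of 93 and 0 of 725 cells of deleted libraries 3, 4 and 8, and in 0 of 31, 1 of 120, 0 of 183 and 0 of 160 cells of wild-type libraries 1, 2, 5 and 6.

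**Figure D1:**
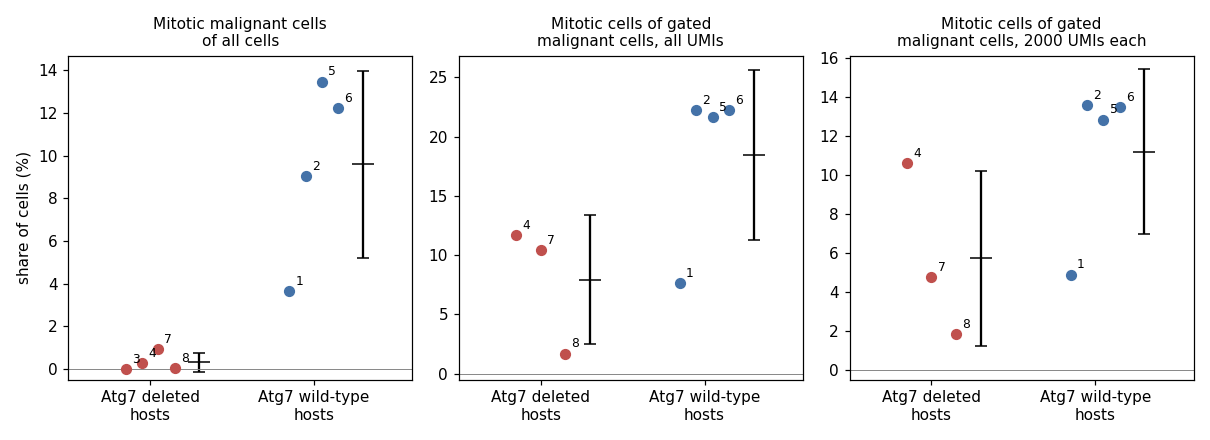
Share of cells in percent for each library (points, labelled with the library number) of Atg7 deleted and Atg7 wild-type hosts, with the mean and SD beside them. The mitotic share of all cells does not overlap between genotypes, while the mitotic share of gated malignant cells does, with wild-type library 1 at 7.66% before and 4.89% after thinning to 2000 UMIs.

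Within the cells found, the genes of the rule are described first. Levels are UMIs of a gene per 10000 UMIs of a cell, averaged over the cells of a library. Top2a, the topoisomerase that untangles sister chromatids, stood at 6.45, 3.19 and 2.52 in mitotic cells of deleted libraries 4, 7 and 8, and at 6.89, 6.53, 4.13 and 3.37 in those of wild-type libraries 1, 2, 5 and 6. Ube2c, the ubiquitin-conjugating enzyme of the anaphase-promoting complex, stood at 4.06, 7.38 and 4.54 in the deleted libraries and at 4.37, 4.48, 6.18 and 7.11 in the wild-type libraries. Both genes overlapped between the genotypes.

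Mki67, which coats mitotic chromosomes, stood at 1.39, 1.61 and 2.02 in the deleted libraries, and at 3.53, 3.01, 2.14 and 2.04 in the wild-type libraries. Birc5 (survivin), of the chromosomal passenger complex, stood at 7.11, 3.13 and 8.57 in the deleted libraries, and at 3.14, 4.03, 3.69 and 4.72 in the wild-type libraries. Birc5 overlapped between the genotypes. Mki67 and Cenpf were lower in the 3 deleted libraries, but for Mki67 the nearest values were 2.02 in deleted library 8 and 2.04 in wild-type library 6. Mki67 and Cenpf are rule genes, on whose values the cells were chosen, so no host difference is read from them. The share of all genes that separate in this way is not given here. The value of deleted library 8 is that of a single cell. Cenpf, a kinetochore protein, stood at 1.43, 2.57 and 1.51 in the deleted libraries, and at 3.59, 2.81, 2.79 and 2.72 in the wild-type libraries. Ccnb1 (cyclin B1) stood at 1.45, 0.617 and 0.504 in the deleted libraries, and at 2.15, 1.57, 1.11 and 1.09 in the wild-type libraries. The deleted values rest on 7, 9 and 1 cells, for example 6, 13 and 1 UMIs of Ccnb1.

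Mitotic and non-mitotic cells had both passed the keratin gate, and their levels of Krt8 and Krt18 were close. In wild-type libraries Krt8 averaged 15.4 ± 2.21 in mitotic and 15.4 ± 1.03 in non-mitotic cells, and Krt18 averaged 12.3 ± 2.93 in mitotic and 12.2 ± 3.19 in non-mitotic cells (SD, n = 4). Of the 5 further genes, Tm4sf1 averaged 6.03 ± 1.63 in mitotic and 5.01 ± 1.22 in non-mitotic cells, and Wfdc2 averaged 5.67 ± 1.01 in mitotic and 5.55 ± 1.24 in non-mitotic cells. Krt19, a simple-epithelium keratin, was lower in mitotic cells of each wild-type library, at 2.00, 2.47, 0.582 and 1.32, against 3.21, 4.77, 1.01 and 2.64 in non-mitotic cells of libraries 1, 2, 5 and 6. Krt7 played almost no part in the gate, since at most 0.245% of mitotic cells in any library held a UMI of it. Epcam was at 0 and Cdh1 (E-cadherin) close to 0, with means of 0.0015 in mitotic and 0.0007 in non-mitotic cells, while Vim (vimentin) averaged 22.7 ± 5.68 in mitotic and 22.9 ± 5.74 in non-mitotic cells. The label of malignant cell thus rests on keratins 8 and 18 with Tm4sf1, Wfdc2, Krt19 and Hmga2, beside almost no E-cadherin and no Epcam.

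RNA of other cell types was found in mitotic cells to a degree that differed by list and library. The summed level of 12 myeloid markers was 17.0, 0.585 and 1.01 in mitotic cells of deleted libraries 4, 7 and 8, and 3.90, 2.47, 0.612 and 0.808 in those of wild-type libraries 1, 2, 5 and 6. In deleted library 7, 7 of the 12 were at 0, Tyrobp, Fcer1g and Csf1r among them. In deleted library 4 none was at 0, and the 10 fibroblast markers summed to 6.14 there against at most 2.05 in any wild-type library. The 12 T and NK markers summed to at most 0.157 in the deleted libraries and at most 0.503 in the wild-type libraries. The 10 dendritic markers summed to 9.94, 2.47 and 2.52 in mitotic cells of deleted libraries 4, 7 and 8, and to 24.4, 31.5, 23.03 and 31.96 in those of wild-type libraries 1, 2, 5 and 6, against 43.4 to 78.7 in cells outside the gate of all 8 libraries. That list holds the class II genes H2-Aa, H2-Ab1, H2-Eb1 and Cd74, and each of its other 6 genes stood at 0.1496 (Fscn1, library 5) or less in wild-type mitotic cells. Ccr7 was higher in deleted libraries 7 and 8, at 0.874 and 1.01. Xcr1 and Clec9a, which mark conventional dendritic cells, were at 0 in mitotic cells of the deleted libraries and of wild-type libraries 1, 2 and 5, and had 1 and 2 UMIs in those of wild-type library 6. A stricter gate without UMIs of Tyrobp, Fcer1g, Lyz2, Cd3e, S100a9 or Col3a1 kept 5, 8 and 1 mitotic cells in deleted libraries 4, 7 and 8, and 47 of 84, 91 of 285, 768 of 818 and 639 of 687 in wild-type libraries 1, 2, 5 and 6.

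Against the non-mitotic malignant cells of the same tumors, mitotic cells held more RNA of most genes of the division lists. In the 4 wild-type libraries, 139 of 8859 genes (1.57%) were at least 2-fold higher in mitotic cells of every library and 0 (0.0%) were at least 2-fold lower. The rule used this contrast, and 6 of the 139 are its own genes. Across all 8859 genes the median log2 ratio was 0.06. Outside the rule, Prc1 (ENSMUSG00000038943, mm10 chromosome 7, 80294450 to 80316259), which bundles the microtubules of the anaphase midzone, had the highest ratio. It stood at 3.15, 3.06, 1.84 and 1.57 in mitotic cells and at 0.204, 0.219, 0.168 and 0.136 in non-mitotic cells of libraries 1, 2, 5 and 6, a median log2 ratio of 3.08.

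The kinases and cyclins came next. Cdk1 (ENSMUSG00000019942, mm10 chromosome 10, 69335146 to 69352938), the engine of mitotic entry, stood at 2.59, 3.11, 1.39 and 1.36 in mitotic cells and at 0.279, 0.357, 0.186 and 0.185 in non-mitotic cells. Its lowest mitotic library lay well above its highest non-mitotic library. Of 19 kinase and cyclin genes, 17 were at least 2-fold higher in every wild-type library, with a list median log2 ratio of 1.71. Plk1 (Polo-like kinase) averaged 1.40 ± 0.636 in mitotic and 0.153 ± 0.0332 in non-mitotic cells, and Ccna2 (cyclin A2) averaged 1.42 ± 0.410 in mitotic and 0.213 ± 0.105 in non-mitotic cells. Aurka and Aurkb, the Aurora kinases, had median log2 ratios of 2.24 and 2.30. Ttk and Bora, a spindle checkpoint kinase and the activator of Aurora A, were higher in all 4 libraries and missed the 2-fold limit in at least 1.

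Genes of anaphase and its checkpoint gave 12 of 13 at least 2-fold higher in every library, with a median log2 ratio of 1.72. Cdca8 and Incenp, which with survivin form the passenger complex around Aurora B, had ratios of 2.19 and 2.30. Cdc20, the activator of the anaphase-promoting complex, averaged 0.510 ± 0.193 in mitotic and 0.0799 ± 0.0143 in non-mitotic cells. Pttg1 (securin), which holds back separase, averaged 2.38 ± 0.742 in mitotic and 0.631 ± 0.190 in non-mitotic cells. Bub3 alone of this list missed the limit, at 0.959 ± 0.136 in mitotic and 0.487 ± 0.0577 in non-mitotic cells.

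Kinetochore genes gave 13 of 17 and spindle and cytokinesis genes 23 of 25, with median log2 ratios of 1.55 and 1.90. Cenpe, the kinetochore motor, averaged 1.27 ± 0.479 in mitotic and 0.115 ± 0.0168 in non-mitotic cells. Kif11, the kinesin that pushes spindle poles apart, averaged 1.13 ± 0.328 in mitotic and 0.0950 ± 0.0299 in non-mitotic cells. Zwint, a kinetochore scaffold, was the exception, at 0.639 ± 0.0980 in mitotic and 0.596 ± 0.0659 in non-mitotic cells, with libraries in both directions. Of 15 genes of chromosome condensation and chromatin, 12 passed the 2-fold limit in every library. Hmgb2, a chromatin protein, was the most abundant of the named top genes, at 7.86, 9.24, 8.42 and 7.11 in mitotic cells and at 1.09, 1.85, 2.06 and 1.78 in non-mitotic cells. Together, 87 of the 139 genes belonged to these lists, the DNA replication list or the rule.

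**Figure D2:**
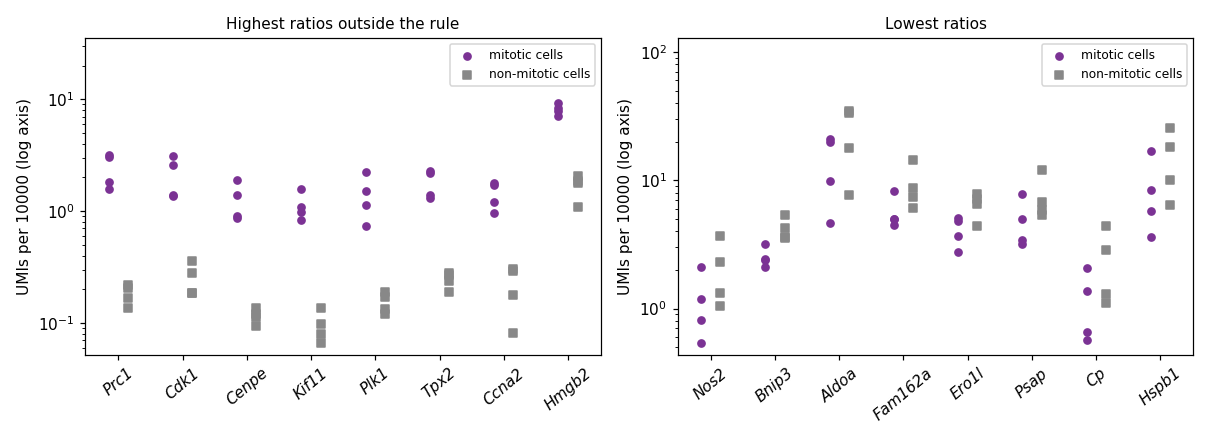
Level in UMIs per 10000 (log axis) in mitotic and non-mitotic malignant cells for 8 of the genes with the highest and 8 of those with the lowest ratios, 1 point for each of the 4 wild-type libraries. For the genes at left, such as Prc1 at 1.57 to 3.15 in mitotic cells, mitotic and non-mitotic cells do not overlap, while for those at right the libraries overlap and the shift is seen within each library.

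The promoters of these genes are shown because the division genes moved together. RefSeq windows of GRCm38.p6 from 250 bases before to 50 after each gene start were searched on both strands for TTTGAA, the core of the cell-cycle homology region bound by MuvB, and for CCAAT, the box bound by NF-Y. The bases before the start are printed for Mki67, Top2a, Ube2c, Cdk1 and Ccnb1, 5′ to 3′ on the gene's strand, with each match in capitals (CCAAT reads ATTGG and TTTGAA reads TTCAAA when it lies on the opposite strand).
Mki67 (chr7:135716380-135716629, minus strand): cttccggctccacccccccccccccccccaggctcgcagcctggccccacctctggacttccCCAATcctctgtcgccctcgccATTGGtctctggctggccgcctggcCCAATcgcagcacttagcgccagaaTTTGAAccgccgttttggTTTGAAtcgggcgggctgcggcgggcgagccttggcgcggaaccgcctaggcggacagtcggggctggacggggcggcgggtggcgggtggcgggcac
Top2a (chr11:99024190-99024439, minus strand): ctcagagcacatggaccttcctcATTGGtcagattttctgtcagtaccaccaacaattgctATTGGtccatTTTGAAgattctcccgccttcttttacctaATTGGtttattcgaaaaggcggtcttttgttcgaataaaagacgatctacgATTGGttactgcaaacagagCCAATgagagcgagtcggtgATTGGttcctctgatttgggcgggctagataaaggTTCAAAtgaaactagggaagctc
Ube2c (chr2:164769679-164769928, plus strand): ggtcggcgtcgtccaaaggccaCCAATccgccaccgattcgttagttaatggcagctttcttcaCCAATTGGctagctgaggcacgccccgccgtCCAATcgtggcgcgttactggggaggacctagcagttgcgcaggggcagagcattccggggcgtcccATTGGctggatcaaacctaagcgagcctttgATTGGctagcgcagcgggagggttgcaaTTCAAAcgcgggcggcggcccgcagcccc
Cdk1 (chr10:69352913-69353162, minus strand): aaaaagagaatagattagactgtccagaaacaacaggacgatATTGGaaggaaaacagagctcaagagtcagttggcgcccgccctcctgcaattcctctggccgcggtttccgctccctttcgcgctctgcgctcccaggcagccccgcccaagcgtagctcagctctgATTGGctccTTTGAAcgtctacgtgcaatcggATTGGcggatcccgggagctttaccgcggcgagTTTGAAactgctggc
Ccnb1 (chr13:100786487-100786736, minus strand): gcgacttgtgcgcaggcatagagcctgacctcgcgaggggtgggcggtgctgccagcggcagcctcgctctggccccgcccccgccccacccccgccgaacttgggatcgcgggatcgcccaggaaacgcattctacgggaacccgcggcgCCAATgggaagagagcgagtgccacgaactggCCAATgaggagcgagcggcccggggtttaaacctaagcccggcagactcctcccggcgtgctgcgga

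Distances are counted to the base of a match farthest from the start. Cdk1 carries TTTGAA 71 and 15 bases before its start and CCAAT boxes 208, 80 and 48 bases before it. Top2a and Ube2c each carry 6 CCAAT boxes, of which 2 in Ube2c overlap, and a TTTGAA on the opposite strand 23 and 29 bases before the start. Top2a also carries a TTTGAA on the gene strand 179 bases before its start. Ccnb1 carries CCAAT 99 and 67 bases before its start and no TTTGAA in this window. Of the 15 genes with the highest ratios, 11 matched the table, with 12 windows. TTTGAA lay in 10 of these 12 windows and CCAAT in 12 of 12, and both lay in 83.3% of them. Prc1 has overlapping windows that hold the same TTTGAA and CCAAT sites, so it is counted more than once. Over the 139 genes, 110 matched, and TTTGAA lay in 60.7%, CCAAT in 71.8% and both in 47.9% of 117 windows. Over all tested genes, TTTGAA lay in 11.8%, CCAAT in 37.7% and both in 4.77% of 9013 windows. Over all 32851 windows of the table, these shares were 17.9%, 37.4% and 6.95%. A match of letters is a description and does not show that a factor binds there.

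Genes of the MuvB, MYB and E2F factors differed from each other. Foxm1, the forkhead factor of late cell-cycle genes, averaged 0.940 ± 0.219 in mitotic and 0.164 ± 0.0151 in non-mitotic cells (SD, n = 4). With the pseudocount of 0.1 added to each level, it was the only gene of 15 that was 2-fold higher in every wild-type library. The pseudocount shrinks the ratios of scarce genes, among them Mybl2 and Lin54, whose means without it differ by more than 2-fold. Mybl2 (B-MYB) averaged 0.261 ± 0.0751 in mitotic and 0.10 ± 0.0561 in non-mitotic cells, and Lin54, the MuvB subunit that contacts DNA, averaged 0.199 ± 0.0291 in mitotic and 0.0681 ± 0.0064 in non-mitotic cells. E2f1, which acts at the start of replication, stood at 0.370, 0.225, 0.301 and 0.239 in mitotic cells and at 0.192, 0.204, 0.314 and 0.274 in non-mitotic cells. E2f1 was thus higher in mitotic cells of 2 libraries and lower in those of the others.

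Genes of DNA replication were higher in mitotic cells by less. All 26 of the 26 tested were higher in each wild-type library, 4 of them (Tk1, Rrm1, Rrm2 and Pclaf) by at least 2-fold, and the list median log2 ratio was 0.74. Rrm2, a subunit of ribonucleotide reductase, averaged 0.941 ± 0.0739 in mitotic and 0.292 ± 0.103 in non-mitotic cells. The helicase subunit Mcm6 averaged 0.719 ± 0.140 in mitotic and 0.531 ± 0.182 in non-mitotic cells, and the sliding clamp Pcna averaged 0.787 ± 0.241 in mitotic and 0.528 ± 0.240 in non-mitotic cells.

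**Figure D3:**
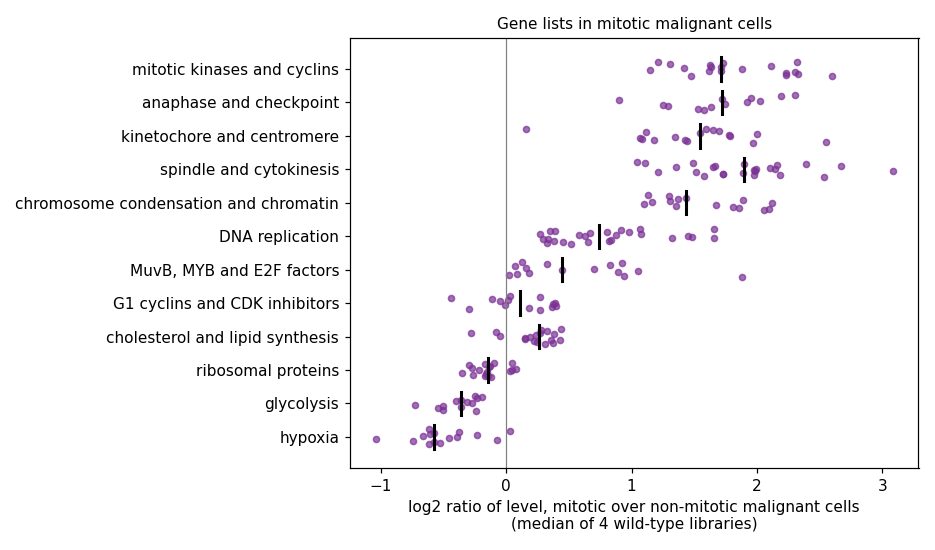
Log2 ratio of level, mitotic over non-mitotic malignant cells (horizontal axis), for each tested gene of 12 lists, as the median of the 4 wild-type libraries, with a bar at the list median. Medians run from 1.90 for spindle and cytokinesis through 0.74 for DNA replication to −0.57 for hypoxia.

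The replication genes did not follow the mitotic genes step for step. Sorted by how many of the 6 rule genes a gated cell passed, the summed level of the DNA replication list was 6.33 ± 0.770 with 0 genes, 18.6 ± 3.66 with 1, 21.98 ± 1.83 with 2, 23.5 ± 2.28 with 3, 19.5 ± 0.785 with 4, 16.03 ± 1.70 with 5 and 12.7 ± 1.97 with 6 (SD, n = 4 wild-type libraries). It was highest with 3 genes in libraries 1, 2 and 6 and with 2 genes in library 5, and from 3 to 6 genes it was lower at each step in all 4 libraries. Mitotic kinases and cyclins instead went up at each step, at 1.75 ± 0.190, 8.42 ± 0.956, 12.9 ± 1.26, 16.6 ± 2.35, 20.2 ± 2.83, 24.0 ± 1.37 and 32.5 ± 2.28 for 0 to 6 genes. Because the cells were sorted by mitotic genes, a rise of other mitotic genes is a description and no test. Median depth of the gated cells also differed, at 12428.5 UMIs with 0 genes, 15249 with 3 and 18414 with 6. In each of the 4 libraries the replication sum with 6 genes was below that with 3 genes, at 10.2, 14.99, 12.5 and 12.96 with 6, and 22.4, 26.8, 22.9 and 21.8 with 3.

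**Figure D4:**
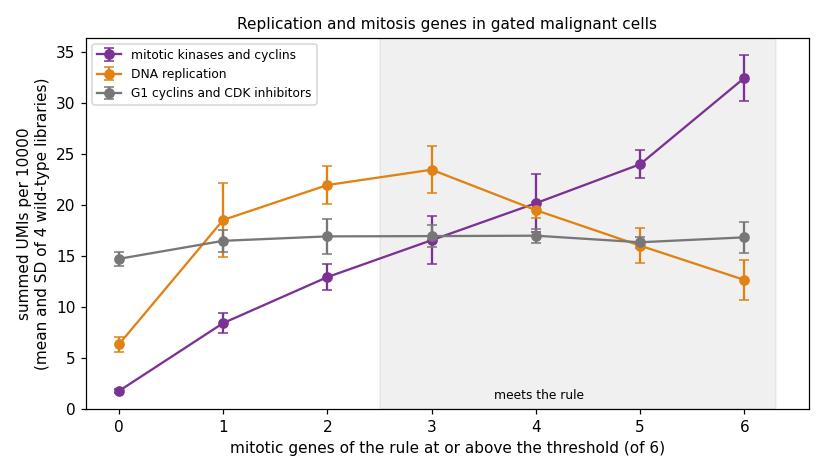
Summed level of 3 gene lists in UMIs per 10000 (mean and SD of 4 wild-type libraries) against the number of the 6 rule genes that a gated malignant cell passed; the shaded range meets the rule. The mean of the DNA replication genes is highest at 3 genes (23.5, with 21.98 at 2) and stand at 12.7 at 6, while mitotic kinases and cyclins reach 32.5.

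Within the mitotic cells alone, replication and mitotic genes ran against each other. Spearman's rho across cells between the summed levels of replication genes and of mitotic genes outside the rule (the kinase and cyclin and the anaphase and checkpoint lists) was −0.38, −0.48, −0.40 and −0.56 in wild-type libraries 1, 2, 5 and 6 (84, 285, 818 and 687 cells). In non-mitotic cells of the same libraries it was 0.32, 0.53, 0.55 and 0.62. The rule had cut the cells on mitotic genes, which narrows the range of the mitotic sum in mitotic cells. Non-mitotic cells include 5517 cells with 0 rule genes, in which the replication and mitotic sums were both low. The change of sign across this cut is therefore a description only. Both sums of a cell share its total as denominator, and in mitotic cells rho with depth lay between 0.03 and 0.15 for the replication sum and between −0.21 and 0.13 for the mitotic sum. When the mitotic cells of each library were ranked by the mitotic sum and cut into 4 bins of equal size, replication genes summed to 25.5 ± 1.13, 22.04 ± 2.34, 17.5 ± 1.63 and 12.9 ± 0.546 from the lowest to the highest bin. Plk1 and Cdc20 are part of the mitotic sum that ranked the cells. Plk1 stood at 0.351 ± 0.0852 in the lowest and 3.11 ± 1.71 in the highest bin, and Cdc20 at 0.0879 ± 0.0404 in the lowest and 1.15 ± 0.383 in the highest. Median depth was 16902 ± 4261 UMIs in the lowest and 16523 ± 3546 UMIs in the highest bin. Ccnd1 (cyclin D1), which acts before replication, stayed between 4.01 ± 1.04 and 4.67 ± 1.11 over the bins. Cells just inside and just outside the rule were close: the 6 rule genes summed to a median of 12.7 in the 743 gated cells with 3 genes and of 8.75 in the 890 gated cells with 2.

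Cyclin D genes and CDK inhibitors differed little between mitotic and non-mitotic cells. None of 14 tested genes reached 2-fold in every library, and the list median log2 ratio was 0.11. Ccnd1 averaged 4.38 ± 0.921 in mitotic and 3.65 ± 0.742 in non-mitotic cells, and its partner Cdk4 averaged 2.62 ± 0.736 in mitotic and 2.00 ± 0.582 in non-mitotic cells. Both were higher in mitotic cells of each of the 4 libraries. Cdkn1a (p21), a CDK inhibitor induced by p53, averaged 2.33 ± 0.309 in mitotic and 2.33 ± 0.245 in non-mitotic cells. Cdkn2a (p16 and p19ARF) was nearly absent, in at most 0.351% of mitotic and at most 0.333% of non-mitotic cells of any library.

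Lower in mitotic cells were genes of the hypoxia response and of glycolysis. Of 15 hypoxia genes tested, 12 were lower in mitotic cells of all 4 wild-type libraries and 0 were higher in all 4, with a median log2 ratio of −0.57. Over all 8859 genes, 1471 were lower and 3006 higher in all 4. Bnip3, a mitophagy receptor induced by low oxygen, stood at 2.41, 2.12, 2.42 and 3.19 in mitotic cells and at 3.56, 3.61, 4.25 and 5.41 in non-mitotic cells of libraries 1, 2, 5 and 6. Ero1l, the endoplasmic reticulum oxidase, stood at 5.06, 4.86, 2.74 and 3.65 in mitotic cells and at 7.09, 7.84, 4.37 and 6.53 in non-mitotic cells. Adm (adrenomedullin), a secreted vessel-dilating peptide, had the lowest ratio of the list, at 0.722 ± 0.366 in mitotic and 1.52 ± 0.582 in non-mitotic cells, and Vegfa averaged 0.451 ± 0.148 in mitotic and 0.741 ± 0.20 in non-mitotic cells. Egln3, an oxygen-sensing hydroxylase, was about level, at 1.41 ± 0.264 in mitotic and 1.44 ± 0.159 in non-mitotic cells.

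Of 13 glycolysis genes tested, 11 were lower in mitotic cells of all 4 libraries, with a median log2 ratio of −0.36. Aldoa (ENSMUSG00000030695, mm10 chromosome 7, 126795234 to 126800751), the muscle-type aldolase, stood at 21.1, 19.9, 4.68 and 9.95 in mitotic cells and at 34.9, 33.3, 7.74 and 17.9 in non-mitotic cells. Levels of libraries 1 and 2 were above those of 5 and 6, and the difference was in the same direction in each. Hk2 (hexokinase) averaged 1.44 ± 0.885 in mitotic and 2.07 ± 1.16 in non-mitotic cells, and Pgk1 averaged 12.3 ± 2.88 in mitotic and 16.4 ± 3.17 in non-mitotic cells. Ribosomal protein genes were lower in all 4 libraries for 13 of 18 (median log2 ratio −0.15), and genes of cholesterol and lipid synthesis were higher in all 4 for 13 of 18 (0.26).

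Others of the lowest 10 were Cp (ceruloplasmin, a copper ferroxidase), Nos2 (inducible nitric oxide synthase), Hspb1 (a small heat shock protein), Psap (the saposin precursor of lysosomes), Fam162a, Hcfc1r1 and Slurp1. Nos2 (ENSMUSG00000020826, mm10 chromosome 11, 78920787 to 78960254) stood at 2.098, 1.20, 0.812 and 0.536 in mitotic cells and at 3.71, 2.33, 1.32 and 1.05 in non-mitotic cells. Cp stood at 2.08, 1.38, 0.565 and 0.662 in mitotic cells and at 4.39, 2.88, 1.10 and 1.29 in non-mitotic cells. Both were lower in mitotic cells within each library, by less than the spread between libraries. In the promoters of the lowest 10, of which 7 matched with 11 windows, TTTGAA lay in 9.09% and CCAAT in 36.4%. ACGTG, the core bound by hypoxia-inducible factors, lay in 45.5% of those windows (5 of 11, of which 2 are overlapping windows of Aldoa with the same site), in 33.3% of the windows of the 15 highest, in 26.8% of the windows of all tested genes and in 19.6% of all windows of the table. It lies 107 and 108 bases before the start of Bnip3, once on each strand.

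The host genotype could be compared within mitotic cells only on a thin basis. No deleted library reached 10 mitotic cells, so the test at that minimum could not be made. A fit added after seeing the data took the libraries with at least 5 mitotic cells, deleted 4 and 7 (7 and 9 cells) against wild-type 1, 2, 5 and 6, with voom weights on summed UMIs, and left out deleted library 8. Of 1267 genes with a median level of at least 1, 0 (0.0%) were higher and 0 (0.0%) lower at an adjusted p under 0.05 (limma, Benjamini-Hochberg), while 72 had an unadjusted p under 0.05, 11 higher and 61 lower in deleted hosts. The count of 0 did not hold without deleted library 4 or 7, when 157 and 51 genes passed on a single deleted library, nor on the scale of the design (unweighted log2 levels with a pseudocount of 0.1 and 10104 genes tested), when 772 passed. With a pseudocount of 1, or on the deposited logs, unweighted fits called 0. None of the 6 tested kinase and cyclin genes, the 12 tested spindle genes or the 6 tested replication genes passed, and their median log2 differences were −0.17, −0.33 and −0.02, beside −0.15 over all 1267 genes.

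Lars2 (mm10 chromosome 9, 123366927 to 123462666), the mitochondrial leucyl-tRNA synthetase, had the smallest adjusted p, 0.0637 by limma, which did not pass. It stood at 33.3 and 98.6 in mitotic cells of deleted libraries 4 and 7, and at 14.3, 6.54, 5.82 and 7.05 in those of wild-type libraries 1, 2, 5 and 6. Both deleted libraries lay above the wild-type libraries, and the single cell of deleted library 8 held 0 UMIs of it. Without deleted library 4 or 7 its adjusted p was 0.0049 and 0.0382 by limma, with a single deleted library left. It passed with the stricter gate (adjusted p 0.01997, limma) and with the barcode set as a term in the fit (1.15e-05). It did not pass with median-ratio scaling (adjusted p 0.460, limma) or without cells of over 4500 genes (0.148). With rule genes counted at any value above 0, its adjusted p was 0.119 by limma. Among the alternative settings of the voom fit, Lars2 did not pass in 11 and passed in 5, fits with a single deleted library among them. The unweighted fits are not counted here for Lars2. The other genes of smallest p were higher for AA467197, Gbp2 (an interferon-induced GTPase), Vamp8 (a SNARE of lysosome and autophagosome fusion) and Sec61g (of the translocon). They were lower for Ifi27l2a (an interferon-induced gene), mt-Nd2 (of respiratory complex I), H3f3b (histone H3.3), 4930523C07Rik and Fosl1 (an AP-1 factor), with adjusted p from 0.417 to 0.723 by limma. With the barcode set as a term, 7 genes passed, among them AA467197 (adjusted p 0.00837), Ifi27l2a (0.0158), H3f3b (0.0295) and mt-Nd2 (0.0449), each in the direction given.

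Class II antigen presentation genes are given by library because they were far apart. Cd74, the invariant chain, stood at 1.96, 1.24 and 1.51 in mitotic cells of deleted libraries 4, 7 and 8, and at 8.31, 8.02, 10.997 and 16.6 in those of wild-type libraries 1, 2, 5 and 6. H2-Aa stood at 3.12, 0 and 0 in the deleted libraries, and at 5.96, 8.29, 5.24 and 6.35 in the wild-type libraries. The 3 deleted libraries that held mitotic cells lay below every wild-type library for both genes. The cholesterol and lipid synthesis list also separated, summing to 7.37, 3.97 and 6.55 in these libraries against 12.9 to 14.3 in wild-type ones. So did the kinase and cyclin list, at 17.5, 15.7 and 16.6 against 18.5 to 23.5. The share of all genes that separate in this way is not given here. Cd74 and H2-Aa are also in the dendritic list. Of that list, Xcr1 and Clec9a were at or near 0 in these cells, while Ccr7 was higher in deleted libraries 7 and 8 than in the wild-type libraries. The source of the class II RNA was not tested. The fit gave log2 differences of −2.52 ± 0.689 (SE) for Cd74 and −4.15 ± 1.44 for H2-Aa, with limma adjusted p of 0.502 and 0.723, so neither passed. Non-mitotic malignant cells held 2.78, 5.50, 1.86 and 13.8 of Cd74 in deleted libraries 3, 4, 7 and 8, and 8.43, 8.02, 10.8 and 17.9 in wild-type libraries 1, 2, 5 and 6. Deleted library 8 thus fell among the wild-type libraries in non-mitotic cells, where it had 58 cells. B2m, the light chain of class I, was similar by host, at 28.4, 33.8 and 22.2 in mitotic cells of the deleted libraries and at 33.2, 32.1, 19.7 and 20.2 in the wild-type libraries, and it did not pass (adjusted p 0.976, limma).

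The same libraries allowed a test of whether the host difference was another in mitotic than in non-mitotic malignant cells. Of 1267 genes, 4 (0.316%) had a higher and 0 (0.0%) a lower difference in mitotic cells by limma with Benjamini-Hochberg adjustment: mt-Cytb, mt-Atp8, mt-Co2 and Lars2. The first 3 are genes of the mitochondrial genome, for cytochrome b, a subunit of the ATP synthase and a subunit of cytochrome c oxidase. mt-Cytb (mm10 chromosome M, 14145 to 15288) stood at 19.2 and 15.5 in mitotic and 12.1 and 7.90 in non-mitotic cells of deleted libraries 4 and 7, a higher level in mitotic cells of both. In wild-type libraries 1, 2, 5 and 6 it stood at 26.5, 35.2, 53.8 and 50.9 in mitotic and 26.6, 32.3, 52.5 and 49.6 in non-mitotic cells, which were close in each library. The difference of differences was 0.89 ± 0.108 (SE) on the log2 scale, with an adjusted p of 0.00924 by limma.

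mt-Co2 stood at 50.1 and 59.1 in mitotic and 51.8 and 32.8 in non-mitotic cells of deleted libraries 4 and 7, so that only library 7 was higher in mitotic cells on this level scale, and the difference of differences was 0.58 ± 0.0946 (adjusted p 0.0305, limma). mt-Atp8, whose reading frame overlaps that of mt-Atp6, gave 0.74 ± 0.109 (adjusted p 0.0274, limma). It stood at 4.13 and 26.2 in mitotic cells of deleted libraries 4 and 7, and at 5.13, 5.66, 68.7 and 69.2 in those of wild-type libraries 1, 2, 5 and 6, so its level followed the barcode set. Lars2 gave 1.11 ± 0.181 (adjusted p 0.0305, limma). Without deleted library 7 no gene passed, and mt-Cytb was then 0.71 with an adjusted p of 0.659. Without wild-type library 5 no gene passed either, and mt-Cytb was 0.88 with an adjusted p of 0.0535. Without wild-type libraries 1, 2 and 6 in turn, 2, 1 and 1 genes passed, and without deleted library 4, 3 genes passed, 2 of them among the 4, with mt-Cytb at an adjusted p of 0.0502. With 10104 genes tested by the detection filter alone, 3 genes passed, 0 of them among the 4, and mt-Cytb had an adjusted p of 0.0567 by limma. With the barcode set as a term, mt-Cytb and Lars2 passed (both 0.0307), while mt-Atp8 (0.131) and mt-Co2 (0.0860) did not. With the stricter gate, mt-Cytb and mt-Atp8 passed (both 0.0179), while mt-Co2 (0.125) and Lars2 (0.268) did not. The median mitochondrial share of UMIs in mitotic cells was 0.643% and 2.95% in deleted libraries 4 and 7, and 5.17%, 7.24%, 5.58% and 4.38% in wild-type libraries 1, 2, 5 and 6; its part in these results was not tested.

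**Figure D5:**
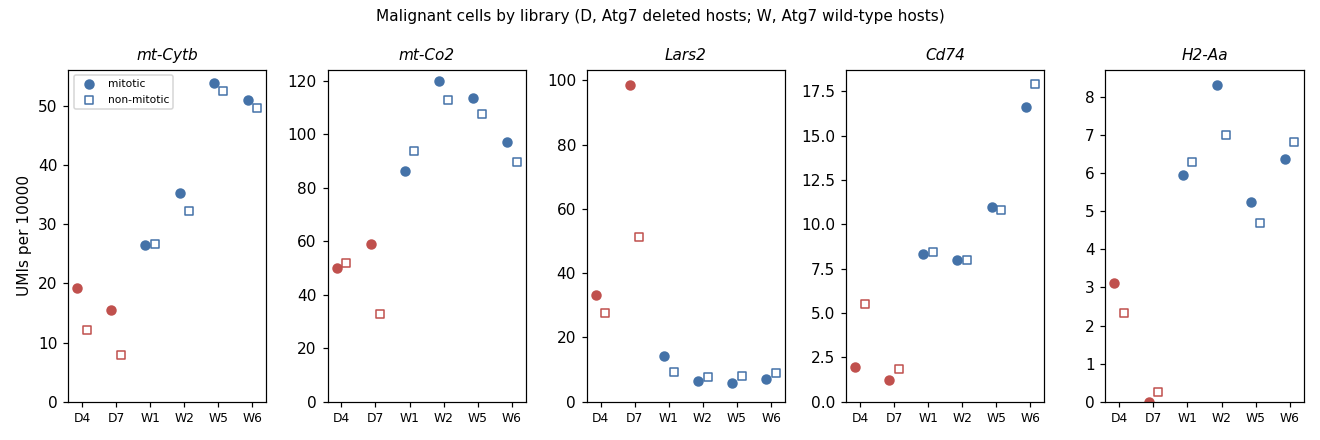
Level in UMIs per 10000 of 5 genes in mitotic (filled circles) and non-mitotic (open squares) malignant cells of deleted libraries 4 and 7 (D, red) and wild-type libraries 1, 2, 5 and 6 (W, blue). For mt-Cytb, mitotic exceed non-mitotic cells in both deleted libraries (19.2 against 12.1 and 15.5 against 7.90), and Cd74 and H2-Aa are lower in the deleted libraries, a difference that did not pass the test.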

How the data were processed

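Values in the deposited matrices are natural log values: the UMIs of a gene were divided by those of its cell, multiplied by 10000 and, after adding 1, logged, a unit read from the values. Cell Ranger 2.1, Seurat 3.0 and mm10 stand in the submitters' processing notes; the sources used here give no further steps. Whole UMIs were recovered from each value within a tolerance of 0.01, for 100% of values. Of 19024 gene symbols, 98.7% matched GENCODE M21.

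Levels are the mean over cells of UMIs per 10000; log2 ratios use a pseudocount of 0.1. A gene entered the mitotic against non-mitotic description with a UMI in at least 5% of mitotic cells of each wild-type library or a non-mitotic level of at least 0.5 in each. Shares were compared by exact two-sided permutation over libraries with at least 20 gated cells, after random thinning to 2000 UMIs with seed 1. Doublets were not called.

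For host differences the design asked for libraries with at least 10 mitotic cells and limma on log2 levels; no deleted library had as many. The reported fit, chosen after seeing the data, used voom in limma 3.58.1 (R 4.3.3) on summed recovered UMIs of libraries with at least 5 mitotic cells and genes with a median level of at least 1. The design's unweighted fit, run on the same libraries, called 772 genes where the reported fit called 0. Genes were named by fixed ranks (the 15 highest and 10 lowest ratios at a mean level of at least 1, the 5 smallest p in each direction); other named genes come from the gene lists and were chosen with their values seen. The members and lists were chosen with earlier results of these data known. Promoter sequences are RefSeq's, GRCm38.p6.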

Additional observations from a re-analysis of the deposited data

Results flagged for a closer look

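Of 50 sets of 4 library values examined, 8 had a library apart from the other 3 by Dixon's test at the 95% level, where chance alone marks about 1 in 20. Wild-type library 1 had the lowest mitotic share of gated malignant cells, at 7.66% with all UMIs and 4.89% after thinning, against at least 21.7% and 12.8% in the other 3 wild-type libraries. Its mitotic cells also held the most Cenpf, at 3.59 UMIs per 10000, and the highest summed level of fibroblast markers, at 2.05. In mitotic cells of wild-type library 2, the DNA replication list summed to 21.3, the neutrophil markers to 3.05 and the B cell markers to 0.0461 UMIs per 10000. In mitotic cells of wild-type library 5, the erythroid markers summed to 0.343.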

How the results depend on the processing

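No paired analysis was possible because the genotypes share no replicate numbers in the labels. The lower share of mitotic malignant cells of all cells in deleted hosts kept its direction under each alternative, at −5.80 percentage points with at least 4 of 6 genes. None of these alternatives thinned the cells to equal depth. Permuted within barcode sets the difference stayed −9.30 percentage points with p = 0.0556, and leaving out 1 library at a time gave −11.3 to −8.00 with p = 0.0571; both are the smallest exact permutation p these designs allow. The mitotic share of gated malignant cells stayed lower in deleted hosts in 17 of 17 alternatives, from −10.5 to −1.97 percentage points. Thinning to 1000 or 4000 UMIs gave −2.63 or −9.87. With 3 deleted against 4 wild-type libraries, the smallest possible exact permutation p for this share is 0.0571. Leaving out a library or permuting within barcode sets cannot give a smaller one. The p-values of these alternatives therefore cannot decide whether the share differs, and only the direction is reported.

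Counts of genes in the host fit depended on the processing. Against 0 called in the reported fit, there were 772 with unweighted log2 levels and a pseudocount of 0.1, 1314 with 0.02, 0 with 1, 0 on the deposited logs, 4641 without the detection filter, 3 with the stricter gate and 7 with a barcode set term. Leaving out 1 library gave 0 to 157 (157 without deleted library 4, 51 without deleted library 7), each with 1 deleted library assumed to vary like the others. Sec61g ran from −0.44 without deleted library 7 to 1.597 without deleted library 4. For the difference between mitotic and non-mitotic cells, with 4 called in the reported fit, there was 1 with unweighted levels and a pseudocount of 0.1, 597 with 0.02, 76 with 1, 235 on the deposited logs, 1001 without the filter, 2 with the stricter gate and 2 with a barcode set term. Leaving out 1 library gave 0 to 3. The cause of these changes was not tested. The detection filter alone, added after seeing the data, gave 0 and 3, with 0 of the 3 among the 4 called in the reported fit. Minimums of 10 or 20 mitotic cells, and at least 4 of 6 genes, left no deleted library and were not run for genes. Few deleted cells (17) limit every host comparison.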

Other observations

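Dividing CD8 T cells of the same tumors passed the same 6-gene criterion and give a second view of the programme. In wild-type libraries 2, 5 and 6, 17, 26 and 25 CD8 T cells met it. Ccnd1 (cyclin D1) stood at 3.69, 5.67 and 4.43 UMIs per 10000 in mitotic malignant cells and at 0.186, 0.288 and 0 in dividing CD8 T cells of these libraries. Hmgb2 stood at 9.24, 8.42 and 7.11 in mitotic malignant cells and at 34.99, 19.5 and 27.7 in dividing CD8 T cells. Each gene kept the same order in the 3 libraries, and the differences were not tested.

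Of gated CD8 T cells, 3.92%, 1.39% and 14.5% met the criterion in deleted libraries 3, 4 and 8, against 14.8%, 17.6% and 11.5% in wild-type libraries 2, 5 and 6 (exact permutation p = 0.2, the smallest possible being 0.1). The other 2 libraries held under 20 such cells.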
